A study of Mus musculus with 6 samples.

Results

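The genes of the unfolded protein response, the integrated stress response and the heat shock response were examined by bulk RNA sequencing in kidneys of KC-Tie2 and Control mice. They were chosen by name for their roles, with earlier results of these data known: 44 genes were listed, and 43 of them were among the 17550 genes of the deposited table. Chac1, a glutathione-degrading enzyme induced by ATF4, has no row there and no value here. By role the listed genes fall into 14 endoplasmic reticulum (ER) chaperones and folding enzymes, 4 genes of ER-associated degradation, 4 sensors and transcription factors, 9 genes of ATF4 and its targets (8 in the table) and 13 heat shock genes. KC-Tie2 mice serve as a psoriasis model: the receptor tyrosine kinase Tie2 is expressed from a transgene in skin keratinocytes. There were 3 KC-Tie2 libraries and 3 Control libraries, made with poly(A) selection from kidneys perfused with saline. Genotype is the one difference the labels name; what the Control mice carry is not stated, and the authors' table heads that group WT. Sex, strain, age, litter and batch are not given. Each library has its own sample label without a statement that each is a separate animal, so a p-value here reflects sample-to-sample spread, which may be technical.

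The ER folds secreted and membrane proteins with the help of chaperones. When unfolded protein accumulates, 3 sensors respond: IRE1 (gene Ern1) splices the Xbp1 transcript, ATF6 is cleaved to a transcription factor, and PERK (gene Eif2ak3) phosphorylates the initiation factor eIF2. IRE1 and ATF6 raise chaperone and degradation genes, while PERK shares with other eIF2 kinases the integrated stress response, in which translation of ATF4 rises and ATF4 induces genes of amino acid supply, feedback and cell death. The heat shock response is a separate programme of the cytosol and mitochondria driven by HSF1. In the kidney, the proximal tubule reabsorbs protein and carries a large ER, and the hypertonic inner medulla is known for high levels of inducible heat shock proteins. Values per gene do not show splicing of Xbp1, cleavage of ATF6 or phosphorylation of eIF2.

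Values are deposited normalized counts, which are not scaled for transcript length and are compared only within a gene. They summed to 23647811 to 25155944 in KC-Tie2 and 24288853 to 25495455 in Control libraries. Log2 fold changes are KC-Tie2 minus Control on the log2(value + 1) scale, with the standard error, from limma, and a gene was called at a Benjamini-Hochberg adjusted p under 0.05 over the 17539 genes whose mean reached 10. All 43 members of the table passed that limit. All 10 kidney markers (such as Lrp2, Slc34a1, Umod and Aqp2) were detected in every library, and none was at 0.

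Across the 43 genes, limma called 1 higher and 0 lower in KC-Tie2 kidneys, where the shares over all genes tested were 0.855% higher and 0.838% lower, 1.69% in all. The gene that rose was Ppp1r15a. In the authors' deposited table, at a step-up FDR under 0.05, 1 member was higher (Ppp1r15a) and 5 were lower (Edem1, Sesn2, Hspa8, Hsp90ab1 and Hspd1), beside 1.83% and 2.08% of all genes, 3.91% in all. At an unadjusted limma p under 0.05 there were 3 higher and 10 lower members, beside 7.57% and 7.77% of all genes. The groups did not overlap at 2 members with KC-Tie2 above and at 6 with KC-Tie2 below, beside 9.96% and 10% of genes. The median log2 fold change of the members was -0.15, with 30 of 43 below 0, against a median of 0.001 and 49.7% below 0 over all genes tested.

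**Figure D1:**
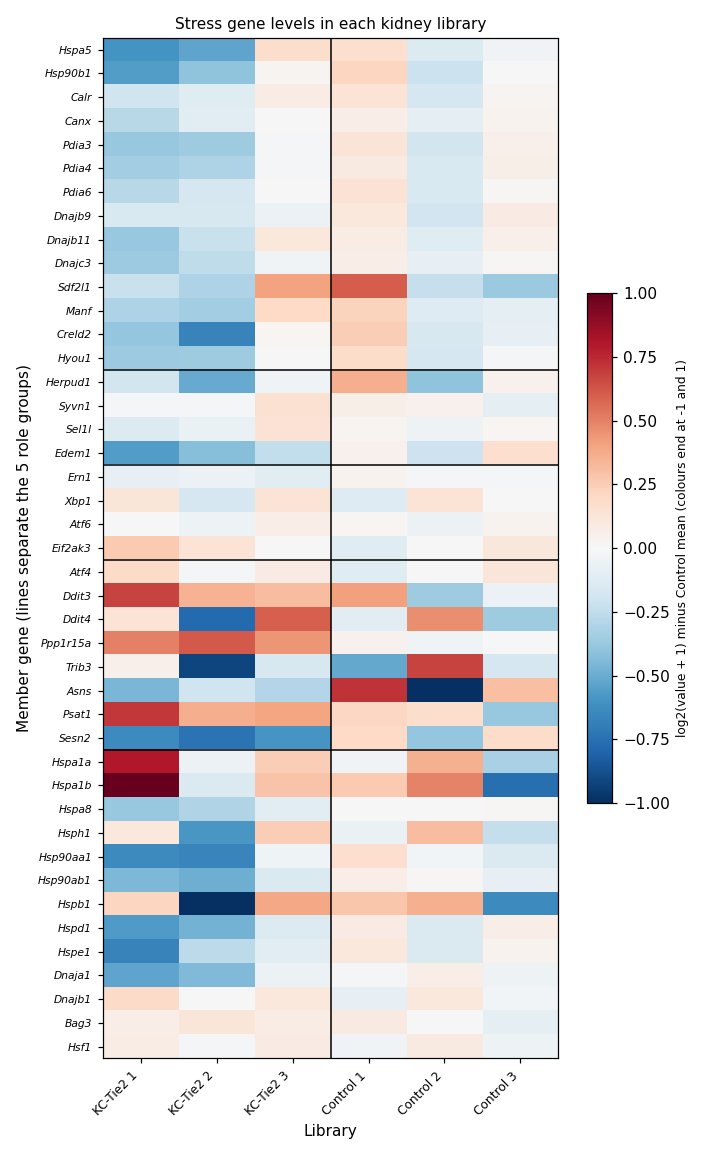
Level of each of the 43 genes (rows, italic) in each library (columns, KC-Tie2 left and Control right) as log2(value + 1) minus the Control mean of that gene; blue is below and red above the Control mean, with colours ending at -1 and 1, and horizontal lines separate the role groups. KC-Tie2 replicates 1 and 2 are blue through the ER chaperones at the top, whereas KC-Tie2 replicate 3 is mostly paler there, and the row of Ppp1r15a is red in all 3 KC-Tie2 libraries.

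ER chaperones and folding enzymes had lower averages in KC-Tie2 kidneys without a single call. All 14 log2 fold changes were below 0, from -0.34 (Creld2) to -0.04 (Sdf2l1), with a median of -0.19. No member was called by limma (adjusted p 0.254 to 0.967) or in the authors' deposited table. At an unadjusted limma p under 0.05, 2 were lower, beside 7.77% of all genes. Hspa5 encodes BiP, the main ER chaperone of the HSP70 family (mm39 chromosome 2, 34661982 to 34667559). It had 6634, 6953 and 11349 normalized counts in KC-Tie2 replicates 1 to 3, against 11303, 9139.6 and 9796 in Control replicates 1 to 3. KC-Tie2 replicates 1 and 2 lay below every Control library and KC-Tie2 replicate 3 above every one, so the groups overlapped (log2 fold change -0.32 ± 0.23, limma adjusted p = 0.595). Without KC-Tie2 replicate 3 the Hspa5 log2 fold change was -0.56 and was called (limma adjusted p = 0.0111, from 0.0111 to 0.864 over the alternatives).

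Hsp90b1, which encodes the ER paralog of HSP90, had 6867, 7641 and 10281 normalized counts in the KC-Tie2 libraries, against 11724, 8734 and 10102 in the Control libraries. KC-Tie2 replicates 1 and 2 again lay below every Control library, and KC-Tie2 replicate 3 lay among the Control values (log2 fold change -0.31 ± 0.17, limma adjusted p = 0.446). The lectin chaperones of the calnexin cycle, Calr and Canx, had smaller differences. Calr had 11981 ± 1214 in KC-Tie2 and 12683 ± 1326 in Control kidneys, and Canx 12142 ± 1163 and 13249 ± 760 (SD, n = 3 each). The smallest unadjusted p-values of the class belonged to Dnajc3, a cochaperone of BiP that also inhibits PERK (3862 ± 450 and 4477 ± 240.3, log2 fold change -0.22 ± 0.09, limma adjusted p = 0.254), and to the disulphide isomerase Pdia4 (2315 ± 297 and 2699.9 ± 243, log2 fold change -0.23 ± 0.10, limma adjusted p = 0.299). The isomerases Pdia3 and Pdia6, the cochaperones Dnajb9 and Dnajb11, the nucleotide exchange factor Hyou1 and the secreted factors Manf and Creld2 lay between -0.34 and -0.12. Sdf2l1, a BiP-associated factor of low level, had 144, 136 and 223 in KC-Tie2 and 256, 144 and 129.9 in Control libraries.

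Libraries of one genotype also differed from each other in this class. KC-Tie2 replicate 3 was the highest KC-Tie2 library at all 14 genes, and Control replicate 2 was the lowest Control library at 13 of 14, the exception being Sdf2l1. The median deviation of the 14 genes from their Control mean was -0.36, -0.31 and 0.01 in KC-Tie2 replicates 1 to 3 and 0.14, -0.16 and 0.01 in Control replicates 1 to 3 (log2 units). Among 10 kidney markers 6 had log2 fold changes above 0 and 4 below, and limma called none. The groups did not overlap at 5 markers with KC-Tie2 above and at 3 with KC-Tie2 below, the proximal tubule markers. At an unadjusted limma p under 0.05, 5 markers were higher and 2 lower. The authors' deposited table has 2 higher and 1 lower at an FDR under 0.05. Slc34a1, the sodium-phosphate transporter, had 87701, 97004 and 95970.2 normalized counts in KC-Tie2, against 109315, 103856 and 113719 in Control libraries. The endocytic receptor Lrp2 and the androgen-regulated transcript Kap had log2 fold changes of -0.20 ± 0.09 and -0.98 ± 0.22 (limma adjusted p = 0.337 and 0.107). The 10 kidney markers, of which proximal tubule genes are the most abundant, together summed to 436208 to 503967 in KC-Tie2 and 532501 to 618020.1 in Control libraries. The part of these markers in the chaperone values was not tested, and in bulk tissue fewer cells of a type and less RNA per cell cannot be told apart.

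**Figure D2:**
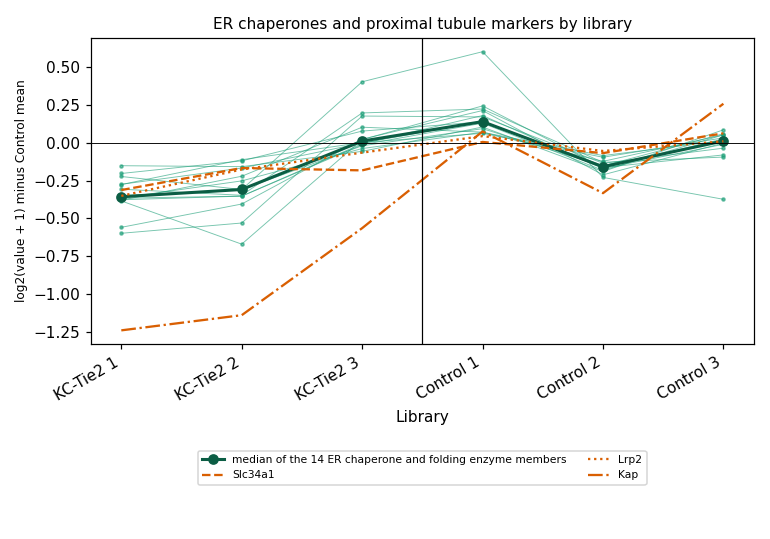
Each thin green line joins the values of 1 of the 14 ER chaperone and folding enzyme genes across the libraries (horizontal axis, KC-Tie2 left, Control right), the thick green line is their median, and the orange lines are the proximal tubule markers Slc34a1, Lrp2 and Kap; the vertical axis is log2(value + 1) minus the Control mean. The median lies at -0.36 and -0.31 in KC-Tie2 replicates 1 and 2 and at 0.01 in KC-Tie2 replicate 3, and Kap is at -1.24, -1.14 and -0.56 in the same libraries.

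ER chaperone promoters are known for the ER stress response element, at which ATF6 acts together with the CCAAT-binding factor NF-Y. Promoter sequences were taken from RefSeq on GRCm38.p6, a different build from the mm39 positions above, and 37 of the 44 genes matched by symbol. The element was searched as CCAAT followed, after any 9 bases, by CCACG, on both strands in the 250 bases before each annotated start. It was present in 37 of all 32851 windows, a share of 0.113%, and 8 of the genes holding it were members. They were 7 of the 12 ER chaperones with a window (Hspa5, Hsp90b1, Calr, Canx, Pdia6, Dnajc3 and Creld2) and Syvn1. The sites are shown because most ER chaperones with a window held one, with the CCAAT and CCACG blocks in capitals on the strand of the gene (in the opposite orientation these read CGTGG and ATTGG):
Hspa5: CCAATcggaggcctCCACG
Hsp90b1, far site: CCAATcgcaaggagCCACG
Hsp90b1, near site: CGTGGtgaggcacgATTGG
Calr: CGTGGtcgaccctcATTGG
Canx: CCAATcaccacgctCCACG
Pdia6: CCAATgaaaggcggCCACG
Dnajc3: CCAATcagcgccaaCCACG
Creld2: CGTGGcgagcctcaATTGG
Syvn1: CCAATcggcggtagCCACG
The sites began 65 bases before the start at Hspa5, 212 and 107 at Hsp90b1, 162 at Calr, 145 at Canx, 98 at Pdia6, 105 at Dnajc3, 126 at Creld2 and 44 at Syvn1. The 250 bases before the Hspa5 start (chr2:34771840-34772089, GRCm38.p6, + strand) are given whole, with the element in capitals, since Hspa5 is the gene by which this response is usually read:
Hspa5: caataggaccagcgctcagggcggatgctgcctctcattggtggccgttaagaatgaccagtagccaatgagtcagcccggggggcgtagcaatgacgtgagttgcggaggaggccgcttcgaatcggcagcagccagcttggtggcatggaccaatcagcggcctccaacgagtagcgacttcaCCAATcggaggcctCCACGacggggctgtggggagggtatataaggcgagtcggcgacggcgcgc
The 7 ER chaperones with the element had a median log2 fold change of -0.22, and the 5 with a window and no exact match had -0.17. A match describes these letters and says nothing of binding in these kidneys, and the shorter UPR element TGACGTGG (0.563% of windows) was in no member window.

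Genes of ER-associated degradation, which returns misfolded proteins to the cytosol for destruction, gave 1 log2 fold change above 0 and 3 below, and no call by limma. Edem1, a lectin that hands misfolded glycoproteins to the degradation machinery, had the lowest log2 fold change of the 4 (mm39 chromosome 6, 108805602 to 108836317). Its normalized counts were 2281, 2505 and 2834 in the KC-Tie2 libraries, against 3456, 2907 and 3786 in the Control libraries. The groups did not overlap (1.33-fold lower, log2 fold change -0.41 ± 0.11, limma adjusted p = 0.0982). The authors' deposited table gives Edem1 an FDR of 0.0112, and limma called it without KC-Tie2 replicate 3 (adjusted p = 0.0386) and without Control replicate 2 (adjusted p = 0.0192), from 0.0192 to 0.31 over the alternatives. The membrane-anchored stress protein Herpud1 had 4527 ± 721 and 5427 ± 1400.2, with Control libraries from 4005 to 6804. The ubiquitin ligase Syvn1 and its partner Sel1l were near 0 (log2 fold changes 0.04 ± 0.08 and -0.02 ± 0.08).

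Among the sensors and their factors no gene was called. Atf6 averaged 1979 ± 76.4 in KC-Tie2 and 1972 ± 66.3 in Control kidneys, and Xbp1 2278 ± 264 and 2227 ± 206. Ern1 had 1006, 1023 and 993 in KC-Tie2 against 1092, 1057 and 1051 in Control libraries, a small difference without overlap (log2 fold change -0.08 ± 0.07, limma adjusted p = 0.612). Eif2ak3, the PERK gene, had 1084 ± 97.5 and 986 ± 80.1, with overlapping groups (log2 fold change 0.14 ± 0.09, limma adjusted p = 0.51). None was called in the authors' deposited table either, and none had an unadjusted p under 0.05.

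Genes of ATF4 and its targets had differences on both sides of 0. Of 8 tested, 4 log2 fold changes were above 0 and 4 below, with a median of 0.04, and Ppp1r15a was the single call. Ppp1r15a encodes GADD34, the inducible subunit that directs a phosphatase to eIF2 and so ends the response (mm39 chromosome 7, 45172340 to 45175692). It had 425, 459 and 407 normalized counts in KC-Tie2 replicates 1 to 3, against 308, 289.9 and 299 in Control replicates 1 to 3. Every KC-Tie2 library lay above every Control library, and the Control libraries differed from each other by less than the gap (1.44-fold higher, log2 fold change 0.52 ± 0.10, limma adjusted p = 0.0228). The authors' deposited table gives Ppp1r15a an FDR of 0.00336. With each library left out the estimate lay between 0.48 and 0.56, but the call was lost without KC-Tie2 replicate 1 (limma adjusted p = 0.0959), KC-Tie2 replicate 2 (0.135), Control replicate 1 (0.0873) or Control replicate 3 (0.0903), from 0.0133 to 0.135 over the alternatives. In those settings, in the same order, limma called 0.394%, 0.274%, 0.291% and 0.308% of all genes, against 1.69% with all libraries. The immediate early transcript Jun also had KC-Tie2 values above all Control values, with 990.3, 985 and 816 in KC-Tie2 against 703, 755 and 689 in Control libraries (limma adjusted p = 0.0649), while Egr1 had 117 ± 35.3 and 226 ± 77.4 (limma adjusted p = 0.233). The immediate early list as a whole had 9 of 12 genes in the table, 4 above 0 and 5 below, with a median of -0.11, and its part in the Ppp1r15a value was not tested.

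The 250 bases before the Ppp1r15a start (chr7:45526269-45526518, GRCm38.p6, − strand of the chromosome, written along the gene) are shown because it is the member that was called:
Ppp1r15a: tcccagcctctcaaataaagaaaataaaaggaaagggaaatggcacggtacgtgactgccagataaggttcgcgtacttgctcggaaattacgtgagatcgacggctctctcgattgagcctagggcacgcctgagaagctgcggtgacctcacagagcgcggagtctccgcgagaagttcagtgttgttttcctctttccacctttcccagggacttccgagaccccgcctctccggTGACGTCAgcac
The capitals mark a cAMP response element, TGACGTCA, a palindrome to which factors of the CREB and ATF families bind. It began 12 bases before the start, and 1.55% of all windows held the element, Ppp1r15a alone among the members.

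Ddit3 encodes CHOP, the transcription factor of ER stress-linked cell death. It had 190, 151 and 147 normalized counts in KC-Tie2, against 158, 92.5 and 114 in Control libraries. Control replicate 1 lay among the KC-Tie2 values (log2 fold change 0.45 ± 0.20, limma adjusted p = 0.313), and Ddit3 overlaps Mars1 on the other strand, so reads of the 2 genes could be shared if strand was not used in counting. The same holds of Hspd1 with Hspe1 and of Hsp90b1, Pdia3, Pdia6, Syvn1, Eif2ak3 and Dnaja1, each of which overlaps another gene on the other strand. Manf overlaps genes on either strand, and use of strand would not separate its reads from those of Rbm15b, on the same strand. Atf4 itself averaged 1237 ± 89.5 and 1164 ± 97.5 (log2 fold change 0.09 ± 0.08, limma adjusted p = 0.681). Psat1, an enzyme of serine synthesis, had 1000.4, 789 and 807 in KC-Tie2 against 707, 692 and 471 in Control libraries. Its groups did not overlap (1.4-fold higher, limma adjusted p = 0.23, and an FDR of 0.054 in the authors' deposited table).

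Sesn2 encodes sestrin 2, a leucine sensor that restrains mTORC1 and is induced by ATF4 and by other stress factors (mm39 chromosome 4, 132219343 to 132237812). It had 1047, 978 and 1083 normalized counts in the KC-Tie2 libraries, against 1876, 1250.4 and 1852 in the Control libraries. KC-Tie2 libraries lay within a narrow range below all Control libraries, of which replicate 2 was the closest (1.58-fold lower, log2 fold change -0.66 ± 0.15). Limma did not call it (adjusted p = 0.0982), whereas the authors' deposited table gives an FDR of 0.000105. Without Control replicate 2 the log2 fold change was -0.85 and was called (limma adjusted p = 0.000332, from 0.000332 to 0.321 over the alternatives). Asns, asparagine synthetase, had its lowest value in Control replicate 2, with 44.4, 53.3 and 49.9 in KC-Tie2 and 102, 29.7 and 75.8 in Control libraries (limma adjusted p = 0.783).

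Control replicate 2 also differed from the other Control libraries at clock output genes. The smallest p-values among clock genes were those of Nfil3 (139 ± 16.5 and 79.8 ± 31.7, limma adjusted p = 0.119) and Hlf (limma adjusted p = 0.291). Hlf, a clock-controlled transcription factor, had 1796, 1936 and 2216 in KC-Tie2 and 3755, 2188 and 3055 in Control libraries, and Dbp, of the same family, had 1424, 1033 and 869 in KC-Tie2 and 2086, 877 and 2209 in Control libraries. Of 15 clock genes in the table, Control replicate 2 was the lowest Control library at 10 and the highest at 5, and its median deviation from the Control mean was -0.42. The part of this difference in the values of Sesn2 and Asns was not tested. Trib3, a pseudokinase that feeds back on ATF4, was near the low end of the table, with 22.2, 10.8 and 19.1 in KC-Tie2 and 14.7, 34.7 and 18.9 in Control libraries. The mTORC1 inhibitor gene Ddit4 ranged from 256 to 664 in KC-Tie2 and from 344 to 608 in Control libraries. For Trib3, Ddit4 and Asns the SE (0.40 to 0.44) was larger than the log2 fold change.

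Asns carries a C/EBP-ATF response element, the site through which ATF4 acts, close to its start. It was searched as TGATGNAAN on both strands, which 3.44% of all windows hold, and was found at Asns, Chac1 and Herpud1. The fixed letters are in capitals on the strand of the gene, with 5 bases either side:
Asns: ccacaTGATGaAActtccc
Chac1: ctgccgTTgCATCActcct
Herpud1: ggcgggTTgCATCAgcccg
None of these genes was called. The Asns and Herpud1 log2 fold changes were -0.32 ± 0.40 and -0.24 ± 0.23.

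**Figure D3:**
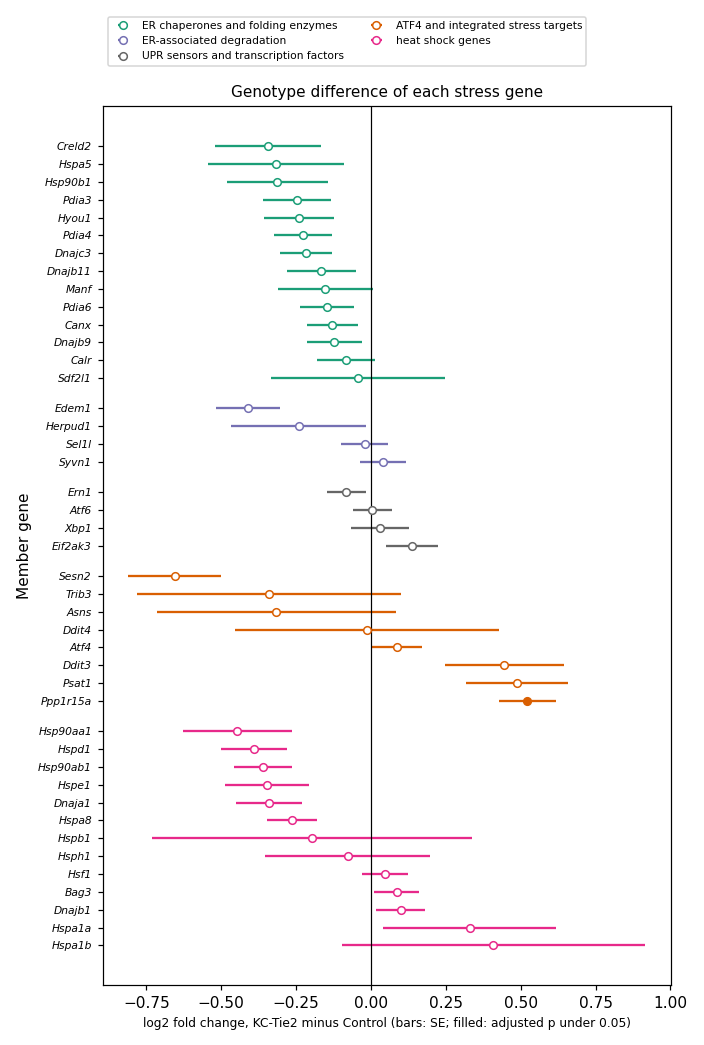
Log2 fold change (horizontal axis, KC-Tie2 minus Control) of each gene, sorted within its role group, with bars of 1 SE; a filled point marks an adjusted p under 0.05. Ppp1r15a at 0.52 is the single filled point, the 14 ER genes at the top all lie left of 0, and the heat shock genes at the bottom run from -0.45 (Hsp90aa1) to 0.41 (Hspa1b).

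Among the 13 heat shock genes, 5 log2 fold changes were above 0 and 8 below, with a median of -0.20. Limma called none, and 6 had an unadjusted p under 0.05, all lower, beside 7.77% of all genes. The authors' deposited table has 3 lower at an FDR under 0.05, beside 2.08% of all genes. The 6 with the smaller p-values were Hsp90aa1, Hspd1, Hsp90ab1, Hspe1, Dnaja1 and Hspa8. Hsp90ab1, the constitutive cytosolic HSP90 (mm39 chromosome 17, 45878701 to 45884197), had 18007, 17556 and 22301 normalized counts in KC-Tie2, against 25801, 24858 and 23303 in Control libraries. The groups did not overlap (1.28-fold lower, log2 fold change -0.36 ± 0.10, limma adjusted p = 0.0948, FDR 0.0128 in the authors' deposited table). Hspa8, the constitutive HSP70 (mm39 chromosome 9, 40712280 to 40721383), had 21956, 23177 and 26369 in KC-Tie2 against 28467, 28460.1 and 28703 in Control libraries. The 3 Control values of Hspa8 were nearly equal and all KC-Tie2 values lay below them (1.2-fold lower, limma adjusted p = 0.15, FDR 0.0459 in the authors' deposited table).

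Hsp90aa1, the HSP90 isoform that is also stress-inducible, had 4091, 4020.1 and 6178 in KC-Tie2 against 7131, 6254 and 5765 in Control libraries. KC-Tie2 replicate 3 fell among the Control values (log2 fold change -0.45 ± 0.18, limma adjusted p = 0.314). Dnaja1, an HSP40 cochaperone of HSP70, had 2249.7, 2395 and 3120.4 against 3212, 3397 and 3131, without overlap (log2 fold change -0.34 ± 0.11, limma adjusted p = 0.176). Without KC-Tie2 replicate 3, limma called 7 members lower (Hspa5, Edem1, Hspa8, Hsp90aa1, Hsp90ab1, Hspd1 and Dnaja1) and Ppp1r15a higher, beside 3.89% of all genes in either direction. The number lower was 2 without Control replicate 2 (Edem1 and Sesn2, beside 3.02% of all genes in either direction). It was 0 without each of the other 4 libraries, where 0.274% to 0.394% of all genes were called in either direction.

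**Figure D4:**
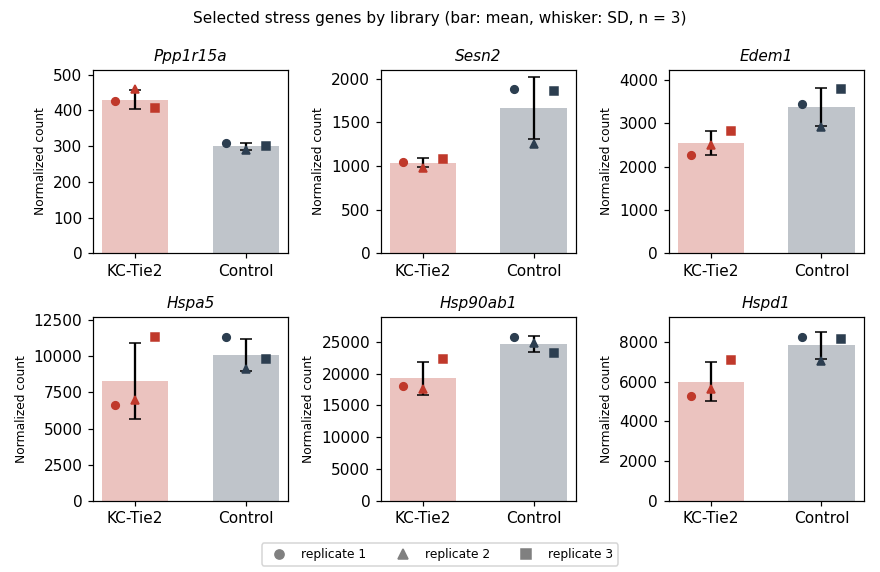
Normalized counts of Ppp1r15a, Sesn2, Edem1, Hspa5, Hsp90ab1 and Hspd1 in each library; bars are means, whiskers SD (n = 3), and circles, triangles and squares are replicates 1, 2 and 3, with KC-Tie2 left and Control right in each panel. The groups are apart at Ppp1r15a, Sesn2, Edem1 and Hsp90ab1, and at Hspa5 the square of KC-Tie2 replicate 3 (11349) is above all Control points.

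The mitochondrial chaperonin genes Hspd1 (HSP60) and Hspe1 (HSP10), whose products assemble into one folding chamber, lie head to head on chromosome 1. Hspd1 had 5287, 5634 and 7106 normalized counts in KC-Tie2, against 8263, 7067 and 8169.8 in Control libraries. KC-Tie2 replicate 3 was just above Control replicate 2 (1.31-fold lower, log2 fold change -0.39 ± 0.11, limma adjusted p = 0.119, FDR 0.0217 in the authors' deposited table). Hspe1 had 541, 719 and 801 against 929.7, 778 and 886 (log2 fold change -0.35 ± 0.14, limma adjusted p = 0.282). The processed pseudogene Hspd1-ps3 had 2365, 2535 and 3266 in KC-Tie2 and 3948, 3426 and 4117 in Control libraries, and the handling of reads shared by it and Hspd1 is not stated. The bases between the 2 starts (chr1:55087933-55088147, GRCm38.p6, + strand) are shown because both genes share them, with 2 overlapping matches to the heat shock element (GAA, TTC and GAA, each 2 bases apart) in capitals:
Hspd1-Hspe1: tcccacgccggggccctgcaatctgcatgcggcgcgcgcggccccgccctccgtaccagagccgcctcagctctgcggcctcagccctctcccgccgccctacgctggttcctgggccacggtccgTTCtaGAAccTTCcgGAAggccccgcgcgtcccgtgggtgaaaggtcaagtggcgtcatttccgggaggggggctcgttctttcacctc
The element, searched on both strands, was held by 0.466% of all windows and had no exact match in any other member window. Longer or imperfect forms of the element were not searched. Hsp90ab1, Hspa8 and Hsp90aa1 had no entry in the promoter table.

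The stress-inducible heat shock genes Hspa1a, Hspa1b and Hspb1 varied widely within each genotype. Hspa1a and Hspa1b encode nearly identical inducible HSP70 proteins from neighbouring genes on chromosome 17, so the division of reads between them is uncertain. Together they had 4132, 1923 and 2516 normalized counts in KC-Tie2, against 2331, 2839 and 1380.0 in Control libraries. The groups overlapped, with KC-Tie2 replicate 1 at the top and Control replicate 3 at the bottom, and neither gene was called (Hspa1a log2 fold change 0.33 ± 0.29, Hspa1b 0.41 ± 0.51, limma adjusted p = 0.681 and 0.79). Hspb1, a small heat shock protein, had 201, 75.2 and 227 in KC-Tie2 and 210.5, 222 and 111 in Control libraries. Low values of Hspb1 were in KC-Tie2 replicate 2 and Control replicate 3 (log2 fold change -0.20 ± 0.53).

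A list of 11 genes of the medulla, collecting duct and osmolyte handling, made after the values were seen, was set beside them. Cryab, a small heat shock protein abundant in the inner medulla, had 5499, 2262 and 3856 in KC-Tie2 and 2632, 3542 and 1534 in Control libraries. The osmolyte enzyme gene Akr1b3 (aldose reductase) had 2520.1, 389.7 and 1436 in KC-Tie2 and 1091, 1601 and 708 in Control libraries, with the lowest values in KC-Tie2 replicate 2 and Control replicate 3, as for Cryab, Hspb1, Hspa1a and Hspa1b. The members Hsph1, Hsp90aa1, Hsp90ab1, Hsf1, Sdf2l1, Syvn1, Ddit4 and Psat1, and the summed red cell transcripts, were also lowest in these libraries. Whether the order is particular to medullary genes was not tested. The list did not share this order as a whole: 4 of the 11 genes were lowest in both of these libraries within their genotypes (Akr1b3, Cryab, Nfat5 and Sgk1), 3 in one of them (Slc5a3, Aqp2 and Aqp4) and 4 in neither (Slc6a12, Slc6a6, Aqp3 and Slc14a2). The osmolyte transporter gene Slc6a6 had its highest values there, with 12031, 14167 and 12792 in KC-Tie2 and 12737, 13275 and 14311 in Control libraries. Aqp2, the collecting duct water channel, was above all Control values in every KC-Tie2 library, with 8464, 5953 and 5917 in KC-Tie2 and 3836, 4888 and 2660.0 in Control libraries (limma adjusted p = 0.254). The part of medullary tissue in the heat shock values was not tested. The remaining genes of the class were close to 0: the transcription factor Hsf1 (log2 fold change 0.05 ± 0.08), the cochaperones Dnajb1 (0.10 ± 0.08) and Bag3 (0.09 ± 0.07), and the HSP110 gene Hsph1 (-0.08 ± 0.28).

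**Figure D5:**
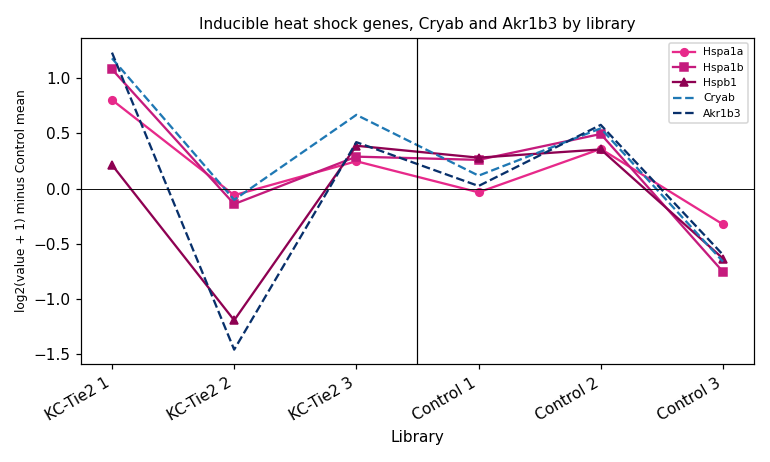
Inducible heat shock genes Hspa1a, Hspa1b and Hspb1 (solid lines) with the medullary genes Cryab and Akr1b3 (dashed) in each library, KC-Tie2 left and Control right, as log2(value + 1) minus the Control mean; lines join the values of 1 gene. All 5 genes are lowest in KC-Tie2 replicate 2 and in Control replicate 3 within their genotypes, and Akr1b3 spans 1.23 to -1.46 within the KC-Tie2 libraries.

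Other genes of the same pathways, listed by role, gave no call by limma in any of 9 lists. Over all genes tested, 15.3% had an unadjusted limma p under 0.05, 7.57% higher and 7.77% lower in KC-Tie2. Among 32 further ER folding and translocation genes, 22 log2 fold changes were below 0 (median -0.08, 2 with an unadjusted p under 0.05, none in the authors' deposited table). The smallest p-values there belonged to Serp1, which stabilizes the translocon under stress (2969.8 ± 378 and 3603 ± 411, limma adjusted p = 0.245), and the disulphide isomerase P4hb (10331 ± 477 and 11785 ± 874, limma adjusted p = 0.277). Of 20 further degradation genes 15 were below 0 (median -0.03, 1 higher and 2 lower with an unadjusted p under 0.05, none in the authors' deposited table). They included Vcp, the ATPase that extracts substrates from the ER (3787, 3821 and 4137 in KC-Tie2, against 4502, 4406 and 4663 in Control libraries, log2 fold change -0.21 ± 0.07, limma adjusted p = 0.159), and Selenos (509 ± 9.27 and 604 ± 35.6, limma adjusted p = 0.169). For the 11 other UPR regulators with values, 5 were above 0 and 6 below (median -0.01, 1 higher and 2 lower with an unadjusted p under 0.05). The survival factor Tmbim6 had 31956 ± 1229 and 36653 ± 1211, without overlap (limma adjusted p = 0.228), and the transcription factor gene Creb3l1 had 203 ± 8.45 and 160.0 ± 26.6 (limma adjusted p = 0.273).

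On the side of eIF2, 12 genes of its kinases, subunits and exchange factor had a median of -0.01, with 1 unadjusted p under 0.05 (Eif2s3x, an eIF2 subunit, 1600.1 ± 95.8 and 1900.4 ± 169, limma adjusted p = 0.161). The next gene by p was Eif2s1, another subunit (limma adjusted p = 0.513). Among 23 further ATF4 targets in the table, 14 were above 0 and 9 below (median 0.10, 3 higher and 4 lower with an unadjusted p under 0.05). Slc7a5, an amino acid transporter, had 99.9, 132 and 111 normalized counts in KC-Tie2, against 77.7, 76.8 and 74.4 in Control libraries (log2 fold change 0.57 ± 0.17, limma adjusted p = 0.136). Shmt2, the mitochondrial serine hydroxymethyltransferase, differed in the other direction, with 2878, 3128 and 3470.4 against 3942, 3714 and 4243 (log2 fold change -0.33 ± 0.08, limma adjusted p = 0.0751, FDR 0.0184 in the authors' deposited table). Both were without overlap, so targets of the same factor lay on both sides of 0. The 20 cytosolic aminoacyl-tRNA synthetases, a further ATF4-linked group, had 5 above 0 and 15 below (median -0.04), with 2 at an unadjusted p under 0.05, Dars (960 ± 48.5 and 1087 ± 31.4) and Rars (529 ± 28.3 and 609 ± 13.0).

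Among 33 further cytosolic chaperones and cochaperones, 18 were above 0 and 15 below (median 0.01). At an unadjusted p under 0.05, 2 were higher and 6 lower, beside 7.57% and 7.77% of all genes. Hspa2, an HSP70 family gene, had 242, 225 and 173 in KC-Tie2 against 133, 161 and 157 in Control libraries (limma adjusted p = 0.15), and Ahsa2, an HSP90 cochaperone gene, had 381 ± 63.8 and 486 ± 32.1 (limma adjusted p = 0.17). All 8 subunits of the cytosolic chaperonin TRiC, which folds actin and tubulin, had log2 fold changes below 0, from -0.21 to -0.04 (median -0.14), and 2 had an unadjusted p under 0.05, Cct3 (1553 ± 160.4 and 1793 ± 72.0) and Cct6a (2356 ± 180.1 and 2686 ± 159). Mitochondrial chaperones and proteases had 10 of 12 below 0 (median -0.08, 2 with an unadjusted p under 0.05). Clpx, the unfoldase of the matrix protease, had 1551, 1748 and 1984 in KC-Tie2 against 2069.5, 2319 and 2268 in Control libraries (log2 fold change -0.34 ± 0.09, limma adjusted p = 0.0897, FDR 0.041 in the authors' deposited table), and Trap1, the mitochondrial HSP90, had 3416 ± 151 and 4013 ± 131 (limma adjusted p = 0.114).

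Markers of other cell types also differed between the groups. Plasma cells hold much ER. Of 12 plasma cell markers 7 were in the table, 2 with log2 fold changes above 0 and 5 below. Among them Igha, Jchain and Igkc fell (limma adjusted p = 0.0128, 0.0277 and 0.0489). Summed over the 7 genes, plasma cell markers were 670 to 704 in KC-Tie2 and 769 to 1128 in Control libraries. The median deviation of the 7 genes from their Control mean was -0.31, -0.84 and -0.23 in KC-Tie2 replicates 1 to 3 and -0.33, 0.15 and 0.36 in Control replicates 1 to 3 (log2 units). All 12 macrophage markers were above 0, and C1qa, C1qb and C1qc rose (limma adjusted p = 0.00742, 0.021 and 0.0449), with list sums of 2844 to 3606 in KC-Tie2 and 2092 to 2692 in Control libraries. Of 8 neutrophil markers 3 were in the table, S100a8, S100a9 and Csf3r, and all rose, with sums of 58.1 to 145 and 8.40 to 17.3; S100a8 was at 0 in 2 Control libraries. Macrophage and neutrophil sums were lowest among the KC-Tie2 libraries in replicate 3. Haemoglobin and other red cell transcripts, a measure of residual blood, summed to 2364 to 6406 in KC-Tie2 and 2562 to 3616 in Control libraries. The lowest KC-Tie2 sum was in replicate 2 and the lowest Control sum in replicate 3. Glucocorticoid targets had 7 of 9 above 0 (median 0.18) with 0 called by limma, 1 at an unadjusted p under 0.05 (Mt1, 1668 ± 206 and 1154 ± 158) and 1 in the authors' deposited table, also Mt1; Mt2 was next by p (limma adjusted p = 0.373). The part of these cell types and signals in the values of the stress genes was not tested.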

How the data were processed

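The deposited gene table holds a signal on a normalized count scale, which the authors made with tools that the submitters' processing notes name as STAR, Partek 12.5.0 and DESeq2, on mm39; no source states their order, the annotation or the use of strand. Low values (under 60) sat mostly on steps that differ by library (0.826 to 1.35): 68.3% to 71.1% were multiples of the step, with a tolerance of 0.01. They were read as estimated counts divided by a factor, 18840863 to 29515460 per library, and no whole reads were recovered. Per the file headers, the second table holds the authors' p-values and step-up FDR per gene, the ratio of KC-Tie2 to a group headed WT, a signed fold change (a score) and model means, which were not used; FDR values and ratios were copied, not retested.

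Values were analysed as log2(value + 1) wherever the mean was 10 or more (17539 genes), in limma 3.58.1 (R 4.3.3), as a linear model followed by eBayes (trend, robust), with residual df of 4 and a median prior df of 7.79, two-sided, with Benjamini-Hochberg adjustment. Python 3.11.15, pandas 2.3.3, numpy 2.4.6 and matplotlib 3.10.9 served for promoters and figures. The fit was tested on simulated data. Deposited positions end 1 base before the listed stop. Alternatives were other pseudocounts, filters, scalings, eBayes settings, library weights, the replicate number as a block and each library left out. Members and lists were chosen with earlier results of these data known. All 44 members could be named. Of each other list the called genes (up to 4) or the 2 smallest p-values were named. The 11 medulla genes, Dbp, Slc34a1, Lrp2, Umod and Hspd1-ps3 were named outside that rule, after their values were seen. So were Derl3, Ero1b, Alg12, Xlr3a, Xlr3b, Acacb and Acnat2, which hold the ER stress response element. One gene that this rule would name is not reported here.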

Additional observations from a re-analysis of the deposited data

How the results depend on the processing

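Other pseudocounts (0.5 or 5), testing all genes or those averaging 100 or more, TMM, quantile normalization and eBayes without robust each left Ppp1r15a the single member called. Quantile normalization gave smaller decreases for Hspa8 (log2 fold change -0.146, against -0.264) and Hsp90ab1 (-0.214, against -0.361). Their limma adjusted p were 0.278 and 0.279, while that of Edem1 fell to 0.0586. With that setting the median was -0.168 for ER chaperones, 0.031 for ATF4 targets and -0.146 for heat shock genes. The number of genes called over the whole table was 297 in the analysis reported. With the replicate block it was 581, with 2 members higher (Ppp1r15a and Psat1) and 3 lower (Edem1, Sesn2 and Hspd1). The labels do not state that the numbers pair the samples. Correlations of same-numbered deviations were 0.178, -0.096 and 0.017, and KC-Tie2 replicate 2 correlated best with Control replicate 3, at 0.26. These correlations were taken over all genes tested, and whether samples were paired cannot be told from them. With library weights it was 549, with 1 higher (Ppp1r15a) and 4 lower (Edem1, Sesn2, Hsp90ab1 and Hspd1). Leaving out each library gave 48 to 682 genes, 0 to 1 members higher and 0 to 7 lower. The median log2 fold change then ran from -0.32 to -0.13 for ER chaperones, -0.11 to 0.25 for ATF4 targets and -0.34 to 0.07 for heat shock genes. At a mean of at least 100, where Trib3 and Asns are not tested, the ATF4 median was 0.27. Of 643 member values under these alternatives, 602 kept direction and side of the threshold, 17 became called, 4 lost the call and 20 changed sign, the last at 9 genes: Sel1l (0.012 with quantile normalization, -0.102 to 0.038 by left-out library), Atf6 (-0.011 with library weights, -0.024 to 0.031), Sdf2l1 (-0.27 to 0.26), Syvn1 (-0.016 to 0.071), Xbp1 (-0.036 to 0.13), Ddit4 (-0.32 to 0.37), Asns (-0.827 to 0.044), Hsph1 (-0.24 to 0.18) and Hspb1 (-0.51 to 0.30). The cause of these changes was not tested. Trib3 and Asns have low values, and 1 estimated count is 0.826 to 1.35 normalized counts. The part of depth in their spread was not tested.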

Other observations

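Outside the chosen genes, 12 tested genes held the ER stress response element within the 250 bases before a RefSeq start. Of these, 8 had a log2 fold change below 0, with a median of -0.14. The 12 include Derl3 (ER-associated degradation, -0.35), Ero1b (disulphide formation in the ER, -0.13) and Alg12 (0.09). Beside them are the X-linked genes Xlr3b (-1.05) and Xlr3a (-0.54), which are close copies of each other. Acacb (0.38) and Acnat2 (0.47), enzymes of lipid metabolism, also held the element. The 50 tested genes other than members with a heat shock element had a median of -0.03, with 30 below 0, and the 267 with a C/EBP-ATF response element had 0.02, with 122 below 0. These sets were made after the values were seen, and no test was run on them.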
